A study of Mus musculus with 4 samples.

Results

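The centrosomal genes described here are 45 mouse genes, read by 67 probe sets on a genome-wide array, out of 19938 named genes and 35556 probe sets in all. They were chosen by name, as the genes called *Cep* with a number together with *Cspp1*, *Lrrcc1*, *Pcm1*, *Cntln*, *Cntrob*, *Ninl*, *Nin*, *Akap9*, *Pcnt*, *Sass6* and *Ofd1*, without *Cep290*, and *Ccdc41* was counted under its current name *Cep83*. The choice was made with the mutant-minus-wild-type differences of these arrays already measured and known, so those differences and the calls made from them are given as a description and support nothing further. RNA came from whole cochleas at embryonic day 15 (E15), dissected from wild-type and from *Meis2* flox/flox; *Pax2* Cre/+ embryos, the latter called mutants here. Their Cre recombinase, under *Pax2* control, acts from the early otic placode and vesicle onwards on the floxed alleles of *Meis2*, a homeodomain transcription factor. The wild-type group held 2 arrays (replicates 2 and 3) and the mutant group 2 arrays (replicates 1 and 2), and the screen looked for genes whose expression in the cochlea depends on *Meis2*. Nothing states whether arrays of the same genotype came from separate embryos or pools, so p-values measure only the spread between these arrays, which may be technical. Because a whole cochlea holds epithelium, neurons, glia and mesenchyme, fewer cells of a type and less RNA per cell cannot be told apart.

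The centrosome is the main microtubule-organizing center of animal cells. It consists of a pair of centrioles, built around a cartwheel and tied together by a linker, within a pericentriolar material that nucleates microtubules. The older centriole carries distal and subdistal appendages and can dock at the membrane as the basal body of a cilium, as it does for the kinocilium of hair cells, and in dividing cells the centrosomes form the spindle poles. Centriolar satellites are granules that carry proteins to it.

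Signals are log2 values from robust multiarray averaging (RMA), and a difference is mutant minus wild type on that log2 scale. Each gene is represented by its brightest probe set, the one with the highest mean over all 4 arrays, and a call is an adjusted p under 0.05 from limma, which fits a linear model to each probe set and borrows strength across them, adjusted over all 35556. The median signal of an array was 6.63 and 6.65 in wild type and 6.73 and 6.72 in mutants. *Meis2* itself had signals of 9.64 and 9.38 in wild type and 9.61 and 9.80 in mutants (adjusted p = 0.284 from limma), and since its probe set may lie outside the deleted part, this checks nothing. The 12 markers of cochlear epithelium averaged 9.52, 9.52, 9.56 and 9.74 in the same array order, and ranged in mean signal over the 4 arrays from 7.67 for *Myo7a*, which marks hair cells, to 12.79 for *Oc90*. The sex-linked transcripts differed between arrays: *Xist* was at 5.54 on wild-type replicate 2 and between 11.51 and 11.84 on the others, and the Y-linked *Eif2s3y* was at 8.76 and 7.77 in wild type and at 4.68 and 4.88 in mutants. The Y-linked signal thus moved with the genotype, and wild-type replicate 3 had both transcripts, so that it may hold RNA of embryos of both sexes. Among the centrosomal genes *Ofd1* is X-linked, and it had no call, so leaving it out could not change the counts of genes called. Whether sex plays a part in the values of the other genes was not tested.

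At their brightest probe set, 21 of the 45 centrosomal genes were lower in mutant cochleas, 4 were higher and 20 did not pass the test. Over all 19938 genes, 16.2% were called lower and 24.2% higher, a background that is printed for scale, and nothing is read from the comparison because the genes were chosen with this contrast known. Among the 67 probe sets 32 were called lower and 6 higher, where the background over all probe sets was 15.7% lower and 21.6% higher. Both mutant arrays lay below both wild-type arrays in 31 genes, against 26.6% of all genes, and above them in 10 genes, against 53.8% of all genes. In the other 4, *Cep76*, *Cep89*, *Cep192* and *Ninl*, the genotypes overlapped. The median difference was -0.36 over the centrosomal genes and 0.13 over all genes, with a range from -1.72 for *Cep83* to 0.89 for *Cep170b*. At least a 2-fold lower signal was seen in 4 genes, *Cep83*, *Lrrcc1*, *Cep70* and *Cntln*, and no gene was 2-fold higher.

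**Figure D1:**
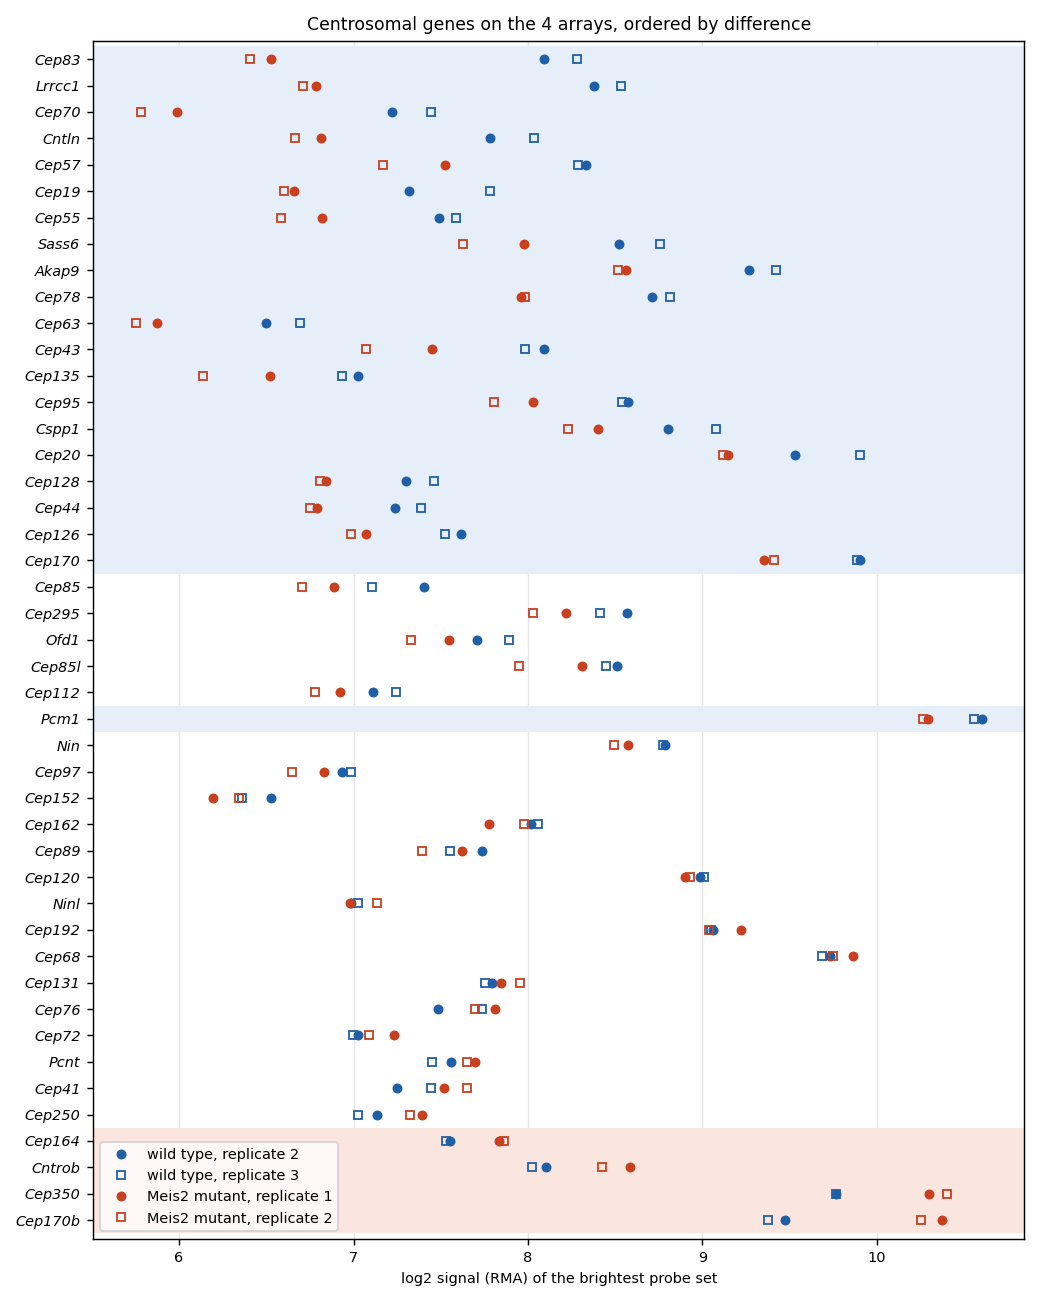
Log2 signal of the brightest probe set of each of the 45 centrosomal genes on the 4 arrays, ordered by difference (blue, wild type; red, mutant; each point is 1 array), with genes called lower on a blue band and genes called higher on a red band. The mutant points lie to the left of the wild-type points in 31 genes and to the right in 10.

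The promoters of a few of these genes are shown because *Meis2* encodes a DNA-binding protein and the genes are described here together. RefSeq promoter windows (GRCm38.p6, 250 bases before to 50 after a transcription start) were matched for 37 of the 45 genes. *Cep83* had the lowest difference, *Cep170b* the highest, and *Cep57* and *Cep128* were the genes called lower whose windows held TGACAG, the hexamer bound by Meis proteins. Each is written from 5′ to 3′ on the strand of its gene, and capitals mark TGACAG or its reverse complement CTGTCA.
Cep83, chr10:94688540-94688839, plus strand: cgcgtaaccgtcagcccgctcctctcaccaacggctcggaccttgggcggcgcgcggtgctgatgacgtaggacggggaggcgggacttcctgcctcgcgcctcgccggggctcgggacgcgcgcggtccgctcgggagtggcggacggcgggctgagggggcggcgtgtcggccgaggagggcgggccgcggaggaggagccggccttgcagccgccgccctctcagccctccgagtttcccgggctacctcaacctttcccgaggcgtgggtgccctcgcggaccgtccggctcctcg
Cep57, chr9:13827004-13827303, minus strand: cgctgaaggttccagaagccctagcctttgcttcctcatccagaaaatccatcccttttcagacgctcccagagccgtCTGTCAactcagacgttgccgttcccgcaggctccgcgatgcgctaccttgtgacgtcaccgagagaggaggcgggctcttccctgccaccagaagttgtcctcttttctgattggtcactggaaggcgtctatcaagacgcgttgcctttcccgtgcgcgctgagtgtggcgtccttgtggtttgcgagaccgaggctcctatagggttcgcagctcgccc
Cep128, chr12:91384360-91384659, minus strand: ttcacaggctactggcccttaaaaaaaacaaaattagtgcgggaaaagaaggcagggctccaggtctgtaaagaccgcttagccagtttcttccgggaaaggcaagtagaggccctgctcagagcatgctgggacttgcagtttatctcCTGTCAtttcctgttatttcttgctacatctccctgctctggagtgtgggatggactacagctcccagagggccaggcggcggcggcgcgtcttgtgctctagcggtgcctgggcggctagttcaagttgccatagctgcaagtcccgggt
Cep170b, chr12:112721924-112722223, plus strand: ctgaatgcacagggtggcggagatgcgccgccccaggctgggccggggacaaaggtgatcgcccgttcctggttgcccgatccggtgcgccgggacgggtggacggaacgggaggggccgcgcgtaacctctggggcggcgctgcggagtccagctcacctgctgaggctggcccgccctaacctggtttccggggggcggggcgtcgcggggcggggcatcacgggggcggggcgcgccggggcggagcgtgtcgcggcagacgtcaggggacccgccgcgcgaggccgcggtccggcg
On either strand TGACAG was present in 7 of the 45 windows of the 37 genes (15.6%) and in 19.2% of all 32851 promoter windows. It occurred in 4 of these genes, *Cep57*, *Cep112*, *Cep128* and *Cep295*, of which *Cep57* and *Cep128* were called lower. Windows of 1 gene can overlap and share a match, as those of *Cep57* do, of which 1 is printed. The 7 windows thus hold fewer separate matches. The Pbx and Hox motif was searched with either T or A as its first letter: TGATNNAT was in none of the 45 windows and in 8.85% of all windows, and AGATNNAT was in 2 of the 45, those of *Cep170* and *Nin* (4.44%), and in 9.4% of all windows. No window of these genes held more than 1 of the motifs, so no matches of different motifs overlapped. The windows of *Cep83* and *Cep170b*, at the opposite ends of the range of differences, held no TGACAG and were both rich in G and C, at 75.7% and 77%. The median GC content was 62% over the 37 genes and 52.8% over all genes with a window. Over the 37 genes, which share the same arrays, the GC content of the promoter and the difference had a Pearson's r of -0.0993 and a Spearman's rho of -0.156. A match is a description of the letters in the window and not a site of binding. The paper reports that in an otic cell line most sites bound by Meis2 lay far from transcription starts, where these windows do not reach. *Cspp1*, *Lrrcc1*, *Cep76*, *Cep120*, *Cep192*, *Cep350*, *Cntrob* and *Pcm1* were not matched.

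Counts by role are a description too, and over all genes 16.2% were called lower and 24.2% higher. The genes assigned to spindle poles and cytokinesis were all called lower at their brightest probe set, 5 of 5, with a median difference of -0.84. They are not all the spindle genes measured. Among the other centrosome genes described further on, the spindle proteins *Haus2* and *Wdr62* were called lower and higher, at -1.50 and 0.75. *Lrrcc1* encodes a leucine-rich repeat and coiled-coil protein needed for spindle pole integrity. Its signals were 8.38 and 8.53 in wild type and 6.79 and 6.71 in mutants. It fell by 1.71, 3.27-fold (standard error of the difference 0.0939, limma adjusted p = 0.00257), and the groups stood far apart beside the distance between arrays of the same genotype. *Cep70*, which binds gamma-tubulin and takes part in spindle assembly, had signals of 7.22 and 7.45 in wild type and 5.99 and 5.78 in mutants. It fell by 1.45 (standard error 0.124), 2.73-fold. *Cep55*, which acts at the midbody when daughter cells separate, had signals of 7.49 and 7.59 in wild type and 6.82 and 6.59 in mutants and fell by 0.84. *Cep95* was at 8.58 and 8.54 in wild type and at 8.03 and 7.81 in mutants and fell by 0.64. *Cspp1*, a microtubule-binding protein of the centrosome and spindle pole, was at 8.80 and 9.08 in wild type and at 8.40 and 8.23 in mutants at its brightest probe set. The difference there, -0.62 (standard error 0.129, adjusted p = 0.0214 from limma), was the smallest of the 5, and the groups did not overlap.

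Of the 45 genes, 3 encode proteins of the distal appendages, which dock the mother centriole at the membrane before a cilium grows, and 1 was called lower, 1 higher and 1 did not pass. *Cep83*, on which the other appendage proteins depend for their recruitment, had signals of 8.09 and 8.28 in wild type and 6.53 and 6.41 in mutants. It fell by 1.72, 3.29-fold (standard error of the difference 0.105, limma adjusted p = 0.00267), the lowest difference of the 45 genes. *Cep164*, which recruits the kinase that starts cilium assembly, was at 7.55 and 7.53 in wild type and at 7.83 and 7.86 in mutants and rose by 0.30 (adjusted p = 0.0361 from limma). That call ended with each array shifted to the same median, with a trended prior, with its probe sets averaged and with any of the 4 arrays left out. *Cep89* had a difference of -0.14 and overlapping groups.

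Of 10 genes of centriole duplication and assembly, 5 were called lower, 1 was higher and 4 did not pass, with a median of -0.45. *Cep57*, which works with *Cep63* in the ring around the centriole, had signals of 8.33 and 8.29 in wild type and 7.53 and 7.17 in mutants and fell by 0.96 (standard error 0.137). *Sass6*, which forms the hub of the cartwheel, had signals of 8.52 and 8.75 in wild type and 7.98 and 7.63 in mutants and fell by 0.83. *Cep135*, which joins the cartwheel to the centriole wall, was at 7.03 and 6.94 in wild type and at 6.52 and 6.14 in mutants and fell by 0.65. These 3 genes had in common a mutant replicate 2 well under mutant replicate 1. *Cep63* was at 6.50 and 6.69 in wild type and at 5.87 and 5.75 in mutants, a decrease of its brightest probe set by 0.78, and *Cep44* fell by 0.54. *Cntrob*, a protein of the daughter centriole, moved the other way, from 8.11 and 8.02 to 8.59 and 8.43, and rose by 0.44 (adjusted p = 0.024 from limma). The members that did not pass were *Cep295* at -0.37, *Cep152* at -0.18, *Cep120* at -0.09 and *Cep76* at 0.14.

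Among the 3 genes of the pericentriolar material, *Akap9*, an anchoring protein for kinases and microtubule nucleators, was at 9.27 and 9.42 in wild type and at 8.56 and 8.52 in mutants and fell by 0.81 (standard error 0.0919). The main scaffold of that material, *Pcnt*, had signals of 7.56 and 7.45 in wild type and 7.70 and 7.65 in mutants, a difference of 0.17 that did not pass. *Cep192*, which recruits mitotic kinases, had a difference of 0.07 at its brightest probe set, and its other probe sets are described further on. The centriole ends and cilium assembly gave 2 of 6 genes called lower. *Cep19*, at the base of the cilium, had signals of 7.32 and 7.78 in wild type and 6.66 and 6.60 in mutants and fell by 0.92 (standard error 0.168). *Cep78* was at 8.71 and 8.82 in wild type and at 7.96 and 7.99 in mutants and fell by 0.79 with the arrays of each genotype close together. *Ofd1*, which acts at the distal end of centrioles and in satellites, had signals of 7.71 and 7.89 in wild type and 7.55 and 7.33 in mutants, a difference of -0.36 that did not pass (adjusted p = 0.0681 from limma). *Cep41*, a ciliary protein linked to modification of tubulin, was at 7.25 and 7.45 in wild type and at 7.52 and 7.65 in mutants, with a difference of 0.24 that did not pass.

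The subdistal appendages and microtubule anchoring held 2 genes called lower, 2 higher and 2 that did not pass. Closely named proteins stood on opposite sides here. *Cep170*, a subdistal appendage protein, was at 9.91 and 9.89 in wild type and at 9.35 and 9.41 in mutants and fell by 0.51, whereas *Cep170b* was at 9.48 and 9.37 in wild type and at 10.38 and 10.26 in mutants and rose by 0.89, 1.86-fold (standard error of the difference 0.0915, limma adjusted p = 0.00445). *Cep128*, also of the subdistal appendages, had signals of 7.30 and 7.46 in wild type and 6.84 and 6.80 in mutants and fell by 0.56. *Cep350* rose at its brightest probe set by 0.59, from 9.77 on both wild-type arrays to 10.30 and 10.40 in mutants. *Nin*, which anchors microtubules at these appendages, had a difference of -0.25, and its relative *Ninl* one of 0.05.

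In the linker between the centrioles 1 of 5 genes was called. *Cntln*, which bridges *Cep250* and *Cep68*, had signals of 7.78 and 8.04 in wild type and 6.81 and 6.66 in mutants and fell by 1.17 (standard error 0.121), 2.25-fold. These partners had no call: *Cep250*, which forms the root of the linker, was at 7.13 and 7.03 in wild type and at 7.39 and 7.32 in mutants with a difference of 0.28, and *Cep68* had a difference of 0.10. *Cep85* and *Cep85l* had differences of -0.46 and -0.35 and did not pass. Of the 4 satellite genes, *Cep126* fell by 0.54. *Pcm1*, the scaffold of the satellites and the brightest of the 45 genes, went from 10.60 and 10.56 to 10.29 and 10.26. It fell by 0.30 (adjusted p = 0.0373 from limma). The call of *Pcm1* ended with quantile normalization repeated and with any of the 4 arrays left out. *Cep72* was at 7.02 and 7.00 in wild type and at 7.23 and 7.09 in mutants, a difference of 0.15 that did not pass, and *Cep131* had a difference of 0.12. Of 3 genes to which no role was assigned, *Cep43* fell by 0.77 and *Cep20* by 0.58, and *Cep112* had a difference of -0.33 that did not pass.

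**Figure D2:**
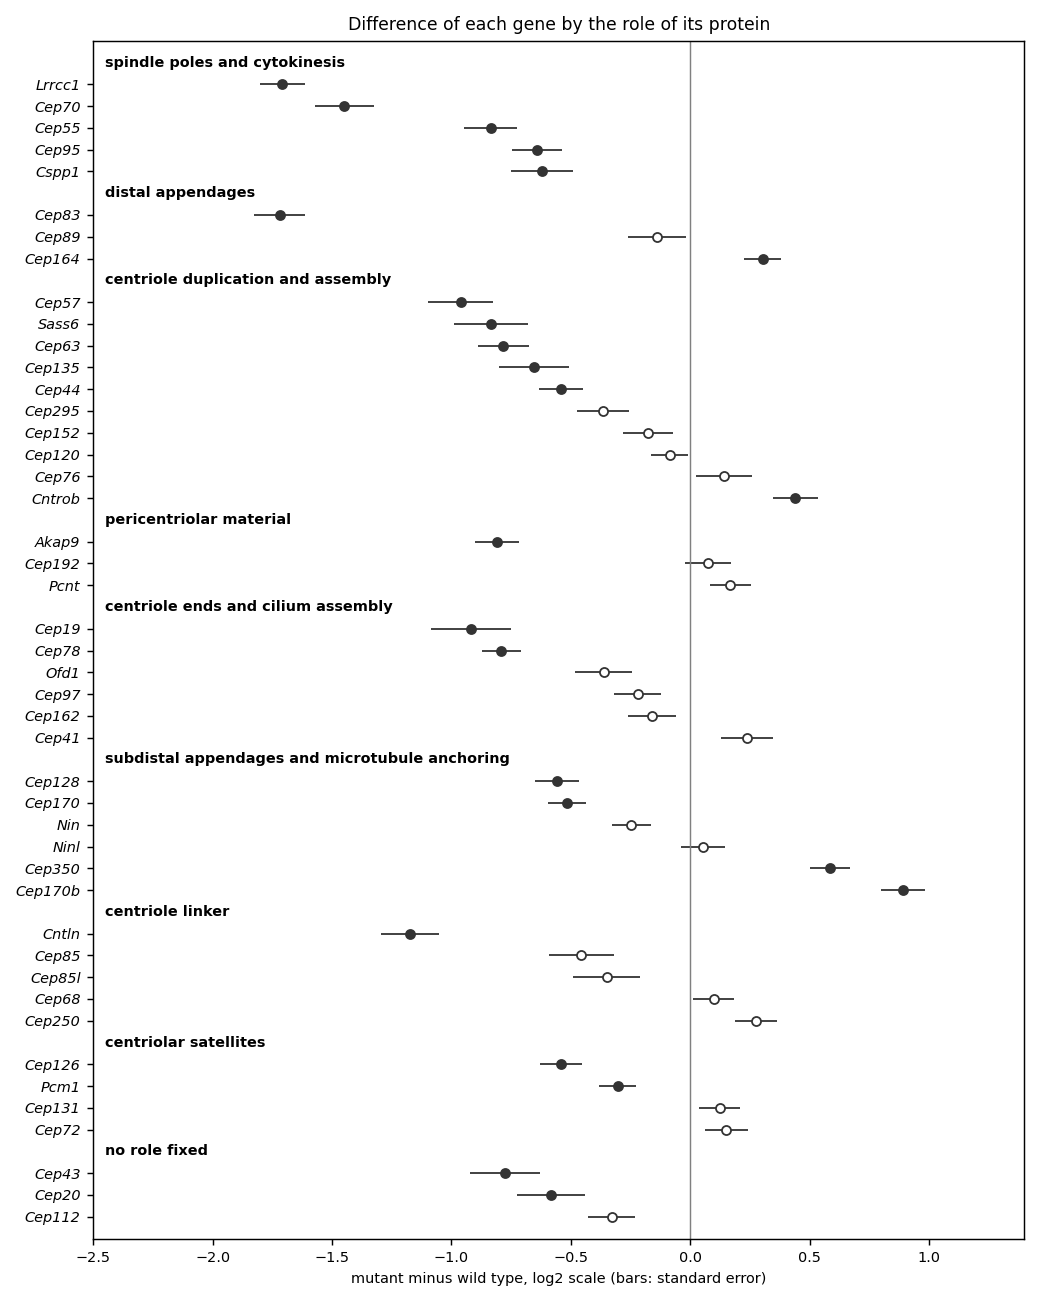
Mutant-minus-wild-type difference of each of the 45 centrosomal genes on the log2 scale, grouped by the role of the protein (points, difference at the brightest probe set; bars, standard error from limma; filled points, called). All 5 spindle pole and cytokinesis genes lie left of zero with filled points, while the 3 distal appendage genes spread from -1.72 to 0.30.

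The 20 genes without a call were mostly small differences, 11 below zero (from -0.46 to -0.09) and 9 above (from 0.05 to 0.28). At the threshold, *Pcm1* was among those just inside, and *Cep85* (adjusted p = 0.0537 from limma), *Cep295* (0.054) and *Cep112* (0.0552) were just outside. The mean signal over the 4 arrays ranged from 6.20 for *Cep63* to 10.43 for *Pcm1*. Sorted by level in 3 groups of 15, the dimmest genes held 8 called lower and 0 higher, the middle group 7 and 1, and the brightest group 6 and 3. Over the 45 genes the level and the difference had a Pearson's r of 0.32 and a Spearman's rho of 0.24, and over all genes r was -0.157, as a description of genes that share the same 4 arrays.

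In a few genes the direction depended on which probe set was read. Of the 45 genes, 40 had 1 probe set, of which 19 were called lower and 2 higher. *Cspp1* had 14 probe sets, *Cep350* 6, *Cep192* 3, and *Cep63* and *Cep164* 2 each. Probe sets of 1 gene were called in both directions in *Cspp1* and *Cep350*, 2 of these 5 genes, against 32 of the 999 genes with several probe sets on the array (3.2%) and 17 of the 222 genes with 3 or more (7.66%). That share was larger among genes with more probe sets, and neither background matches genes with 14 and 6. The genes were also chosen with these differences known, so nothing is read from the comparison.

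Of the 14 probe sets of *Cspp1*, 8 were called lower, 2 higher and 4 did not pass, with differences from -1.46 to 0.96, a mean of -0.52 and a median of -0.61. The differences had an SD of 0.71 between probe sets, whereas the median standard error of a single probe set was 0.126, both given as a description. The lowest, the twelfth in the order of identifiers, had signals of 7.50 and 8.13 in wild type and 6.25 and 6.47 in mutants. The next, directly after it in that order, had signals of 7.63 and 7.61 in wild type and 6.17 and 6.16 in mutants, a decrease by 1.45 with almost no distance between arrays of the same genotype. The highest, the seventh, had signals of 7.80 and 8.05 in wild type and 9.02 and 8.75 in mutants and rose by 0.96, 1.94-fold. The second also rose, by 0.43, and was the only one of the 14 not listed under a RefSeq mRNA in the platform annotation. The last 5 in the order of identifiers were all below zero, from -1.46 to -0.58, and 4 of them were called lower. The order of identifiers is not a stated position along the gene.

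*Cep350* had 2 probe sets called lower, 1 higher and 3 that did not pass, and their mean was -0.07. Its lowest had signals of 8.67 and 8.65 in wild type and 7.51 and 7.69 in mutants. That probe set fell by 1.06, 2.09-fold, while the brightest rose as given above. These stand next but one to each other in the order of identifiers, with the other lower probe set, at -0.59, between them. The brightest probe set of *Cep192* was at 9.06 and 9.05 in wild type and at 9.22 and 9.04 in mutants, without a call. Its other probe sets, dimmer but both listed under RefSeq mRNAs, fell by 0.94 and 0.93 (adjusted p = 0.00346 and 0.00351 from limma). *Cep63* fell at the probe set listed under a RefSeq mRNA, and its dimmer probe set, not so listed, had a difference of 0.25 that did not pass. Both probe sets of *Cep164* were above zero, at 0.30 and 0.11, and the dimmer did not pass. With the mean of all probe sets in place of the brightest, *Cep350* and *Cep192* changed sign and the genes called higher went from 4 to 2. *Cep192* was then called lower and the call of *Cep63* ended, so the genes called lower stayed at 21.

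**Figure D3:**
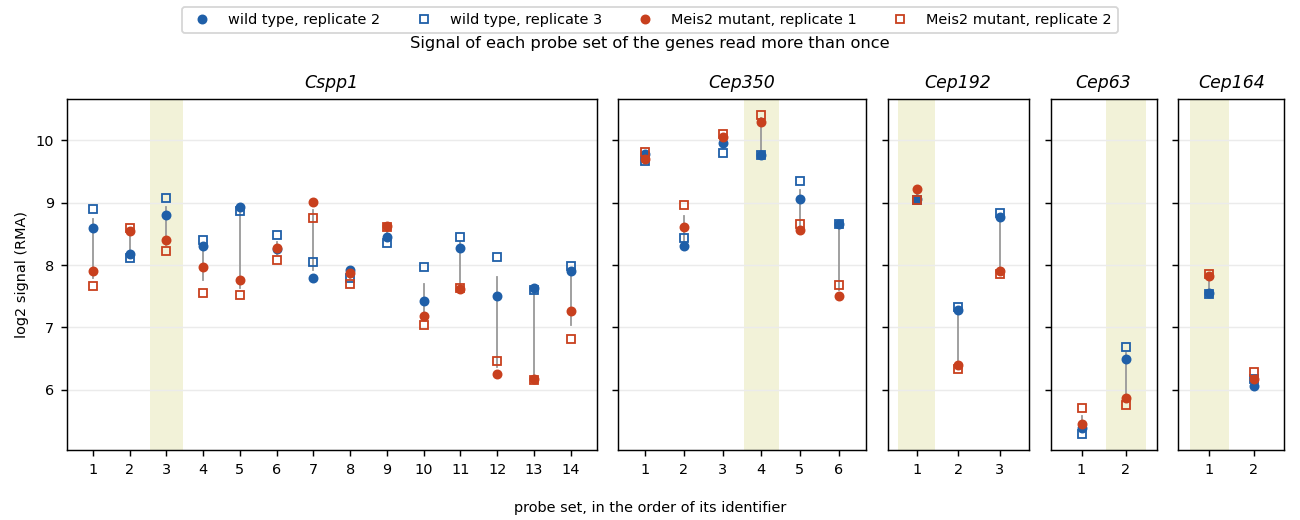
Log2 signal on the 4 arrays of each probe set of the 5 centrosomal genes with several probe sets, in the order of identifiers (blue, wild type; red, mutant; gray line, distance between genotype means; shaded, brightest probe set). In *Cspp1* the red points lie under the blue in most columns but over them in the second, seventh and ninth, and in *Cep350* the direction turns between the fourth and the last.

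The gap between arrays of the same genotype is given next. It comes from the same arrays as the differences known when the genes were chosen. The median gap was 0.106 between the wild-type arrays and 0.134 between the mutant arrays over the 45 genes, and 0.110 and 0.0898 over all genes. For scale, and as part of the contrast known when the genes were chosen, the difference between genotypes had a median size of 0.456 over the 45 genes and 0.284 over all genes, and it was larger than both gaps in 38 of the 45 genes and in 71.6% of all genes, from which nothing is read. Mutant replicate 2 was under mutant replicate 1 in 35 of the 45 genes (77.8%), against 50.8% of all genes. Among the genes called lower this was so in 19 of 21 (90.5%), where the share over all genes called lower was 65.1%. Over all genes it was 45.6% of those called higher and 49% of those that did not pass. The mutant gap thus varies with the call, and nothing is read from these shares. Wild-type replicate 3 was over replicate 2 in 23 of the 45 genes (51.1%), against 63.5% of all genes. The mutant array with the lower centrosomal signals was thus replicate 2. Without it 8 genes were called lower and 1 higher, and without mutant replicate 1 the counts were 13 and 2, while the calls over all probe sets went from 13268 to 4611 and 5811. Without either wild-type array 18 genes were called lower, with 3 higher without replicate 2 and 2 without replicate 3. The 8 genes called lower with each of the 4 arrays left out were *Akap9*, *Cep55*, *Cep57*, *Cep70*, *Cep78*, *Cep83*, *Cntln* and *Lrrcc1*, and among the genes called higher only *Cep170b* kept its call in all 4. The call of *Cspp1* at its brightest probe set ended without wild-type replicate 3 (adjusted p = 0.0521 from limma), mutant replicate 1 (0.0609) or mutant replicate 2 (0.106).

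**Figure D4:**
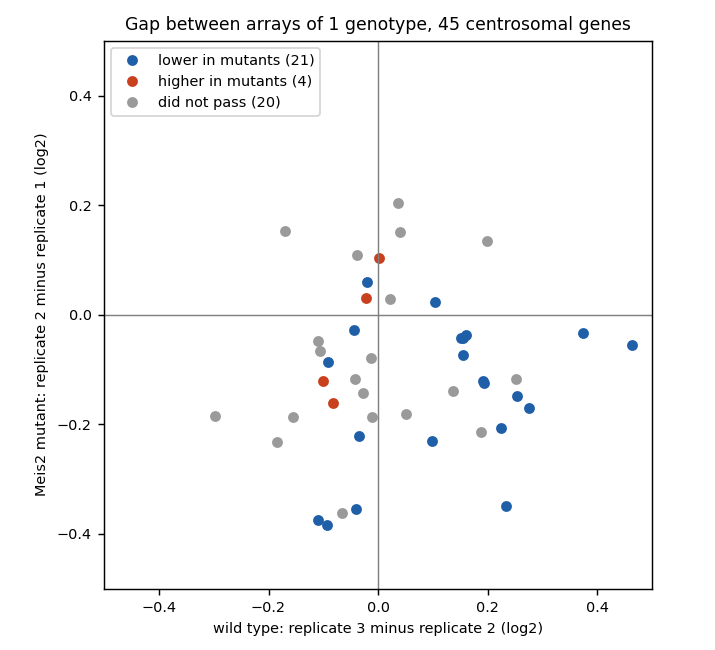
Gap between the arrays of the same genotype for each of the 45 centrosomal genes on the log2 scale (x axis, wild-type replicate 3 minus replicate 2; y axis, mutant replicate 2 minus replicate 1; blue, called lower; red, called higher; gray, not passed). Points lie below the horizontal zero line in 35 genes, 19 of the 21 blue points among them, while 23 lie to the right of the vertical zero line.

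Genes of the same organelle that were not chosen by name moved in both directions as well. Of 60 such names listed, 56 were measured as further genes, since 3 of the others are older names of *Cep20*, *Cep43* and *Cep131*. Of these 56, 21 were called lower, 8 higher and 27 did not pass, with a median difference of -0.27. Over all genes 16.2% were called lower and 24.2% higher. This list was also drawn up with earlier results of these data known, so nothing is read from its counts. Those with the lowest differences were *Cetn3* and *Cetn2*, small calcium-binding centrins in the centriole lumen, *Haus2*, a subunit of the augmin complex that branches spindle microtubules, and *Sclt1*, a distal appendage protein. *Cetn3* had signals of 9.76 and 9.93 in wild type and 8.18 and 7.91 in mutants, 3.49-fold lower. *Haus2*, *Cetn2* and *Sclt1* were 2.82-fold, 2.62-fold and 2.56-fold lower, and *Cetn2* is X-linked. *Sclt1*, at 6.87 and 7.05 in wild type and at 5.63 and 5.58 in mutants, depends on *Cep83* for its place at the appendages. *Plk4*, the kinase that starts centriole duplication, fell by 0.68, and its partner *Stil* had a difference of 0.06 that did not pass. *Wdr62*, a spindle pole protein, was the highest at 1.68-fold, from 6.87 and 6.84 to 7.67 and 7.55, followed by *Poc1a* at 1.56-fold, *Tubgcp2*, a subunit of the gamma-tubulin complexes, which rose by 0.59, and *Poc1b* at 1.44-fold.

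Markers of several cell types moved between the genotypes too, on arrays where 16.2% of all genes were called lower and 24.2% higher. Of 19 measured markers of dividing cells 8 were called lower and 2 higher, and their mean log2 signal was 9.85 and 9.86 in wild type and 9.59 and 9.50 in mutants. Of 11 markers of ganglion neurons 7 were called lower and 0 higher, with mean log2 signals of 9.01 and 9.08 in wild type and 8.40 and 8.36 in mutants. In both lists most of the called genes were lower, as among the centrosomal genes. Skeletal muscle markers went the other way, with 8 of 9 called higher. Their mean signals were 6.34 and 6.58 in wild type and 6.99 and 7.33 in mutants. Of 6 markers of multiciliated cells 4 were called higher, but at dim mean signals between 5.72 and 6.06. The median level of these 6 was 5.75, under log2 6, the limit of a filter given below, and their rises were small, from 0.18 to 0.42. The markers of glia (2 of 4 measured called lower, 1 higher), cochlear epithelium (2 of 12 lower, 4 higher) and periotic mesenchyme and cartilage (2 of 8 lower, 2 higher) were mixed. The part of these cell types, and of the sex-linked difference between the arrays, in the centrosomal values was not tested.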

How the data were processed

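RNA from whole E15 cochleas, isolated with the RNeasy Mini Kit, checked on a Bioanalyzer and amplified with the WT Expression Kit, was measured on 4 Affymetrix Mouse Gene arrays, 2 per genotype. The deposited log2 values were computed by the authors with RMA, which corrects background, normalizes between arrays and summarizes probes into 1 signal per probe set. Scanner files were not used here, so these steps were not repeated from the start.

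All 35556 probe sets were fitted with limma 3.58.1 (lmFit and eBayes, R 4.3.3) without covariates or filter, with Benjamini-Hochberg adjustment and a threshold of 0.05. The number of arrays limits the precision, with 2 residual degrees of freedom and 2.91 from the prior. Names came from the platform annotation: 21789 probe sets had 1 symbol, 1621 several and 12146 are unnamed here. Roles, other centrosome genes and marker lists came from general knowledge. The genes and lists were chosen with earlier results of these data known. Signals per array were printed for *Cspp1*, *Lrrcc1*, *Cep83*, the 8 lowest and 8 highest genes, genes with 3 or more probe sets and up to 4 genes of each role, and of the other centrosome genes for up to 4 in each direction, with further values in passing. Alternatives were median scaling, repeated quantile normalization, a filter under log2 6, a trended prior, significance analysis of microarrays (SAM, 6 relabelings), a threshold of 0.1, the mean of all probe sets, probe sets with 1 symbol, and leaving out each array. In simulated data of 35556 probe sets, 100 were changed by 1 and 100 by 2 on the log2 scale. Of these limma recovered 60% and 92%, and SAM 49% and 92%. Far more probe sets, 13268, were called on the real arrays, so these shares do not give the sensitivity of the real comparison.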

Additional observations from a re-analysis of the deposited data

How the results depend on the processing

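Of the 45 centrosomal genes, 21 to 31 were called lower under the alternatives that kept all 4 arrays. The number called higher was 2 when a gene's probe sets were averaged and 9 with SAM, which called 27021 of all 35556 probe sets, and SAM also called 15 centrosomal probe sets and 15 other centrosome genes higher. With each array shifted to the same median the median difference was -0.45, and *Cep192* and *Ninl*, which had no call, turned sign, as *Cep192* did without mutant replicate 1 and *Ninl* without mutant replicate 2. With each array left out in turn, the genes called lower were 8 to 18 and higher 1 to 3, the probe sets called lower 16 to 29 and higher 2 to 5, and the *Cspp1* probe sets called lower 5 to 8 and higher 1 to 2. The other centrosome genes called lower were then 9 to 18 and higher 1 to 7, and the median difference lay between -0.47 and -0.27. The lowest counts came without *Meis2* mutant replicate 2, except those reached equally without another array. When an array is left out, the remaining one of its genotype is assumed to vary like the others, and fewer arrays leave a less precise test. The calls of *Lrrcc1* and *Cep83* were the same under each alternative run for them, and that of *Cspp1* ended with 3 of the 4 arrays left out. No paired analysis was run because no pairing of wild-type with mutant arrays is stated. The depth of an array is its signal over background, which the deposited values do not hold, so dim probe sets could not be judged against it.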
